A study of Drosophila melanogaster with 34 samples.

Results

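The genes described here encode the integrins of the Drosophila wing disc and the proteins that tie them to the actin cytoskeleton. The group has 9 members of the 17641 genes listed, taken by symbol: the integrin subunits mys, if and mew, talin (rhea), integrin-linked kinase (Ilk), PINCH (stck), parvin, vinculin (Vinc) and paxillin (Pax). All 9 were found and all 9 passed the filter on low values in every comparison. The libraries came from scrib1 mutant tumors, which are wing imaginal discs of larvae carrying the scrib1 allele of the polarity gene scribble, aged 4, 5, 6, 8, 10, 12 and 14 days counted from egg laying (AEL), and from FRT82B control wing discs aged 4 and 5 days. Groups of 3 libraries stand for the 6-day tumors and the 4-day controls, and groups of 4 for every other age, which gives 27 tumor and 7 control libraries. Larvae of both genotypes were raised at low density in the same way, and since control larvae pupariate, tumors of 6 days and older had no control of their own age. Each age was dissected from separate larvae, so the tumor series is a series of groups and not a tumor followed through time.

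Integrins are receptors made of an alpha and a beta subunit, which bind extracellular matrix outside the cell. In flies, the beta subunit encoded by mys pairs with the alpha subunits encoded by mew and if, and in the wing disc mew is known mainly from the dorsal and if mainly from the ventral epithelium. Talin binds the tail of the beta subunit, the complex of integrin-linked kinase, PINCH and parvin sits beside it, and vinculin and paxillin are recruited to the same plaque at the cell membrane.

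The libraries held between 18437402 and 26619424 reads on genes, with 10571 to 11361 genes detected. Each member had at least 1133 reads in every library. The counting error of these reads was 0.842% to 2.92% of the level, and in 10 of the 81 groups of 1 gene at 1 age and genotype the SD between replicates was smaller than that. The mean levels of the members lay at percentiles 83.6 to 98.2 of the genes with a signal in any library. The labels number the replicates and the study calls them biological repeats, but nothing says which larvae each came from, so p-values measure the spread between these libraries. Of the wing disc epithelium markers, all 8 were detected in every group, with summed levels of 1533 to 2555 CPM (counts scaled to a common library size) in tumors and 1735 to 2566 CPM in controls. In 4-day tumors, however, nub and Dll averaged 5.08 and 1.59 CPM, against 245 and 83.4 CPM in 4-day controls. In 14-day tumors they averaged 71.2 and 22.8 CPM. The 8 markers went both ways against controls of the same age. In tumors 3 were called higher and 4 lower at 4 days, and 3 higher and 5 lower at 5 days (adjusted p under 0.05, limma). The shares of all genes called were 61% and 71.5%, with 32.4% and 39% higher. The scrib transcript itself was at 571 ± 45.2 CPM in 4-day tumors and 453 ± 57.2 CPM in 4-day controls (SD, n = 4 and 3), so its RNA level gave no check of the genotype labels. In bulk samples such as these, fewer cells of a type and less RNA per cell cannot be told apart.

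The members are spread over the genome. In the BDGP6 annotation, mys lies on chromosome X at 8061645 to 8070237, if at X 16752189 to 16783434, mew at X 13214409 to 13258490, parvin at X 19746041 to 19748458 and Vinc at X 2214347 to 2222567. The gene rhea lies on chromosome arm 3L at 8545001 to 8574409, Ilk at 3L 21216901 to 21219240, stck on 3R at 8356978 to 8359964 and Pax on 2L at 19400753 to 19426596. All are protein-coding. Of the exon bases of parvin, 22.5% are shared with Alr on the same strand or with an antisense RNA, and of those of Pax 7.93% are shared with other genes. The counting was run with default settings, so reads from those bases may have been lost or taken from a neighbor. For the other members the shared part was 2.06% or less.

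At 4 days, every one of the 9 genes was higher in scrib tumors than in control discs, and at 5 days 8 of 9 were. Pax rose most, mys, if, Vinc and rhea formed the next step, and Ilk, parvin and stck changed less at 4 days. The exception was mew, which was a little higher in tumors at 4 days and was not distinguishable from the control at 5 days. Across all 9637 genes tested, 61% were called at 4 days and 32.4% were called higher. At 5 days 71.5% were called and 39% were called higher. The higher and lower calls at 4 days numbered 3118 and 2758, and with scaling by library size alone 2463 and 3544. The members' median log2 fold change was 1.24 at 4 days, where the median of all genes was 0.04, and 1.06 at 5 days, where that of all genes was 0.06. Fold changes are differences in log2(CPM + 1), a scale that understates changes of low genes, and were tested with limma with Benjamini-Hochberg adjustment over all genes.

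**Figure D1:**
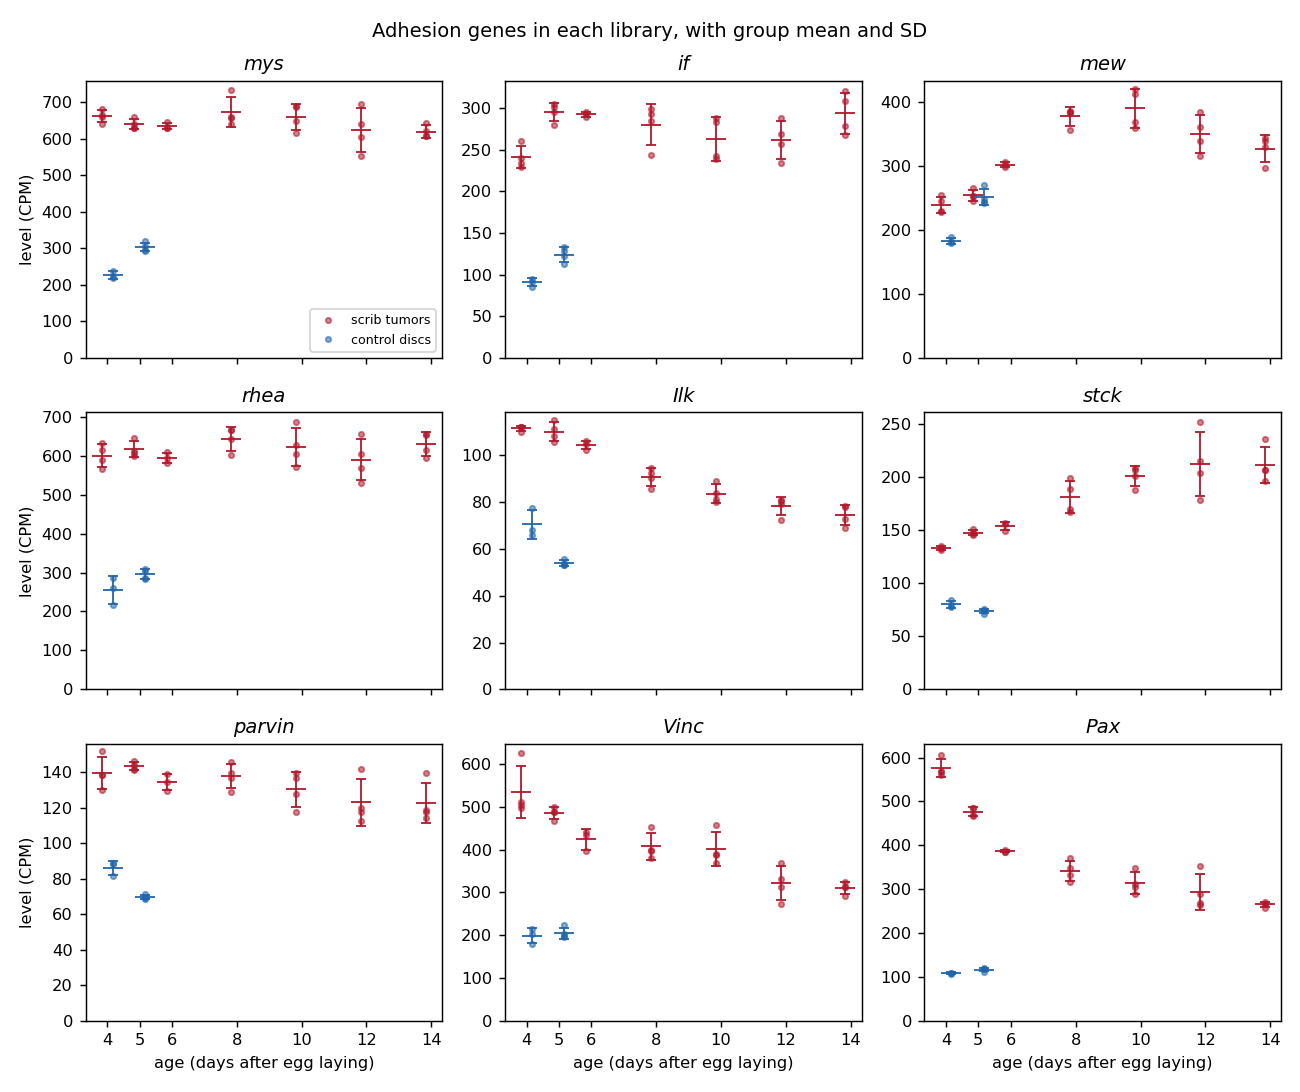
Level of each of the 9 genes in CPM (axis from 0) by age in days AEL, with a point for each library, a horizontal bar for the group mean and whiskers for the SD, for scrib tumors (red, left) and control discs (blue, right). Except for mew at 5 days, tumor points of 4 and 5 days lie above the control points of the same age, and Pax, Vinc and Ilk decline in tumors with age while stck climbs.

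The gene mys encodes the beta subunit shared by the integrins of the wing disc. It was at 666, 659, 640 and 682 CPM in 4-day tumors, against 220, 222 and 239 CPM in 4-day controls. At 5 days it was at 630, 641, 660 and 630 CPM in tumors, against 293, 296, 320 and 306 CPM in controls. The groups were far apart at both ages, while the spread within each group was a few percent. The log2 fold change was 1.54 at 4 days (SE 0.055, adjusted p = 1.46e-20, limma) and 1.07 at 5 days (SE 0.051, adjusted p = 7.38e-18, limma).

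The gene if encodes the alpha subunit alphaPS2. It was at 240, 234, 230 and 260 CPM in 4-day tumors, against 91.8, 95.1 and 85.8 CPM in 4-day controls. Its values at 5 days were 279, 301, 296 and 305 CPM in tumors, against 122, 113, 133 and 129 CPM in controls. Here too no tumor library reached down to a control library. For if, the log2 fold change was 1.40 at 4 days (SE 0.077, adjusted p = 7.34e-16, limma) and 1.24 at 5 days (SE 0.071, adjusted p = 9.64e-16, limma).

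The gene mew encodes alphaPS1, another alpha partner of mys. It was at 244, 229, 229 and 255 CPM in 4-day tumors, against 189, 179 and 180 CPM in 4-day controls. The levels at 5 days were 253, 254, 245 and 266 CPM in tumors, against 242, 269, 243 and 249 CPM in controls. The groups did not overlap at 4 days, whereas at 5 days they overlapped fully. The log2 fold change at 4 days was 0.39 (SE 0.060, adjusted p = 2.22e-06, limma). At 5 days it was 0.02 with an interval of -0.09 to 0.13 at the 95% level (adjusted p = 0.763, limma), and its sign depended on the scaling.

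Talin, encoded by rhea, connects the integrin tail to actin. It was at 565, 588, 613 and 633 CPM in 4-day tumors, against 287, 261 and 215 CPM in 4-day controls. At 5 days, talin RNA was at 600, 606, 646 and 613 CPM in tumors, against 283, 287, 303 and 309 CPM in controls. Its level in tumors was thus about the same at both ages. In CPM it was close to that of mys, but rhea has the longer exons. Per kilobase of exon rhea was at 54.1 CPM in 4-day tumors, against 148 CPM for mys. For rhea, the log2 fold change was 1.24 at 4 days (SE 0.072, adjusted p = 2.37e-15, limma) and 1.06 at 5 days (SE 0.067, adjusted p = 9.82e-15, limma).

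The 3 genes of the complex of integrin-linked kinase, PINCH and parvin moved by similar amounts. Ilk, which encodes the pseudokinase at the core of the complex, was at 112, 112, 112 and 110 CPM in 4-day tumors, against 65.8, 68.2 and 77.5 CPM in 4-day controls. At 5 days Ilk was at 115.3, 111, 106 and 108 CPM in tumors, against 53.3, 53.1, 53.4 and 55.7 CPM in controls. The larger difference at 5 days went with a lower control level and not with a higher tumor level. For stck, the PINCH adaptor that binds Ilk, values were 131, 133, 135 and 133 CPM in 4-day tumors, against 77.7, 78.7 and 83.8 CPM in 4-day controls. At 5 days stck was at 145, 148, 151 and 146 CPM in tumors, against 74.5, 73.3, 71.1 and 76.0 CPM in controls. Both groups of stck were tight at both ages. The actin-binding partner parvin was at 130, 138, 139 and 152 CPM in 4-day tumors, against 88.6, 88.2 and 81.7 CPM in 4-day controls. At 5 days parvin was at 142, 146, 144 and 141 CPM in tumors, against 69.99, 68.4, 71.5 and 69.0 CPM in controls. No library of the tumors overlapped the controls for any of the 3 genes. The log2 fold changes at 4 days were 0.66 for Ilk, 0.73 for stck and 0.69 for parvin, and at 5 days 1.02, 0.99 and 1.03 in the same order. The adjusted p was 4.73e-10 or lower at 4 days and 4.51e-14 or lower at 5 days (limma).

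Vinculin strengthens the link of talin to actin under load. Vinc was at 498, 504, 512 and 625.4 CPM in 4-day tumors, against 214, 204 and 180 CPM in 4-day controls. At 5 days Vinc was at 488, 488, 499 and 468 CPM in tumors, against 198, 195, 203 and 223 CPM in controls. A single 4-day tumor library stood above its group at 625.4 CPM, and the other 3 also lay above every control. For Vinc, the log2 fold change was 1.42 at 4 days (SE 0.086, adjusted p = 6.46e-15, limma) and 1.24 at 5 days (SE 0.079, adjusted p = 1.31e-14, limma).

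Paxillin is a scaffold of adhesion plaques, and its gene had the widest range of the 9, with a ratio of 5.68 between its highest and lowest library. Pax was at 570, 567, 561 and 606 CPM in 4-day tumors, against 107, 110 and 110 CPM in 4-day controls. At 5 days Pax was at 485, 469, 485 and 467 CPM in tumors, against 119, 111, 118 and 120 CPM in controls. The tumor level was lower at 5 than at 4 days, while the control level was close at both ages. The log2 fold change was 2.39 at 4 days (SE 0.066, adjusted p = 3.74e-23, limma), a 5.25-fold difference, and 2.02 at 5 days (SE 0.061, adjusted p = 1.68e-22, limma), a 4.05-fold difference.

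**Figure D2:**
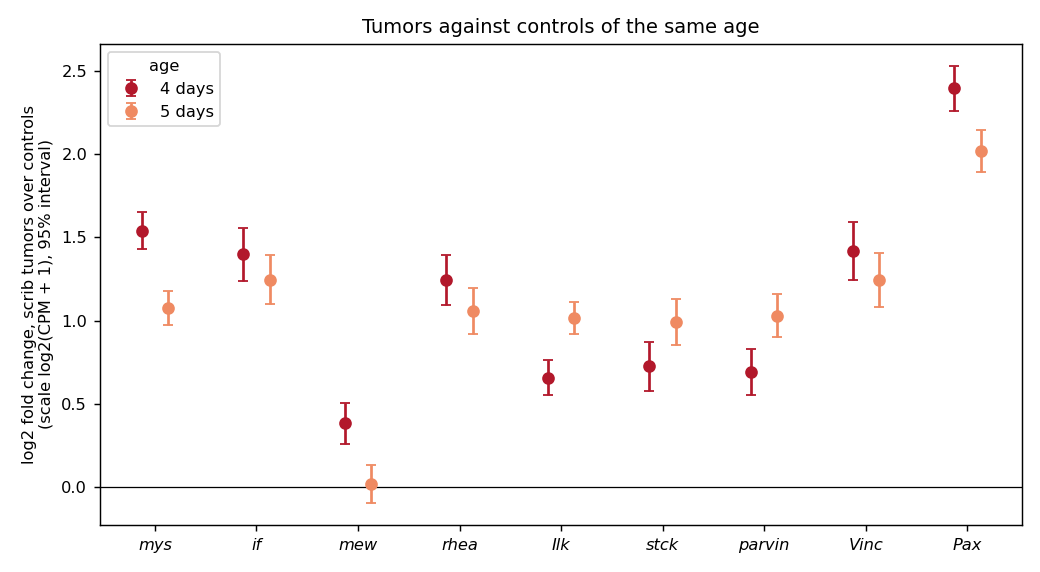
Log2 fold change of scrib tumors over control discs of the same age on the log2(CPM + 1) scale, with 95% intervals, for the 9 genes at 4 days (dark) and 5 days (light). Pax stands highest at 2.39 and 2.02, the interval of mew at 5 days includes 0, and Ilk, stck and parvin lie near 0.7 at 4 days and near 1.0 at 5 days.

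Whether the difference between tumors and controls itself changed from 4 to 5 days was tested as an interaction of genotype and age. It passed the threshold for 6 of the 9 genes, 3 in each direction, in a background of 38.7% of all genes, 19.4% with a larger and 19.2% with a smaller difference. The difference was larger at 5 days for the whole complex of Ilk, stck and parvin, by 0.36, 0.26 and 0.34 on the log2 scale (adjusted p = 0.000119, 0.0330 and 0.00391, limma). It was smaller at 5 days for mys, mew and Pax, by -0.47, -0.37 and -0.37 (adjusted p = 9.23e-06, 0.000635 and 0.00130, limma). The call for stck was lost in 4 of the alternatives, with adjusted p between 0.0512 and 0.0702, and when replicate 3 of the 4-day controls, replicate 3 of the 5-day controls, replicate 1 of the 4-day tumors or replicate 3 of the 5-day tumors was left out (adjusted p up to 0.0922). For if, rhea and Vinc the interaction was -0.15, -0.19 and -0.18 and did not pass, but that of rhea passed without replicate 1 of the 4-day controls (-0.28, adjusted p = 0.025, limma).

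Control discs also changed between these ages. In control discs, 4 genes were higher at 5 days and 2 were lower, in a background of 53.8% of genes called, 26.6% higher and 27.2% lower. The integrin subunits rose together, with log2 fold changes of 0.42 for mys, 0.44 for if and 0.45 for mew (adjusted p of 1.50e-05 or lower, limma), and rhea rose by 0.22 (adjusted p = 0.00943, limma). Ilk fell by 0.38 and parvin fell by 0.30 (adjusted p = 2.69e-07 and 0.000401, limma). The values of stck, Vinc and Pax were -0.12, 0.04 and 0.10 and did not pass. The rise of rhea rested on the lowest control library, since it was 0.11 without replicate 3 of the 4-day controls (adjusted p = 0.198, limma). Its call was also lost in a fit of the 2 groups alone (adjusted p = 0.0542, limma). In the tumors, by contrast, only if was higher and only Pax was lower at 5 than at 4 days, with log2 fold changes of 0.29 and -0.27 (adjusted p = 0.00297 and 0.00128, limma), in a background of 23.9% called.

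Within scrib tumors the 9 genes followed different courses from 4 to 14 days. The slope on age passed for 6 genes, 2 upward and 4 downward, in a background of 77.2% of the 9408 genes tested, 36.4% upward and 40.8% downward. The slopes of mys, if and rhea did not pass, at -0.007, 0.006 and 0.002 log2 units per day (adjusted p = 0.132, 0.498 and 0.671, limma) and 95% intervals between -0.016 and 0.021. PINCH and the alpha subunit mew had positive slopes of 0.069 and 0.050 per day (adjusted p = 1.67e-10 and 0.000178, limma). Pax, Vinc, Ilk and parvin had negative slopes of -0.102, -0.075, -0.063 and -0.023 per day (adjusted p = 4.46e-12, 9.21e-11, 1.23e-14 and 0.000274, limma). The median slope was -0.007 over the members and -0.004 over all genes.

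**Figure D3:**
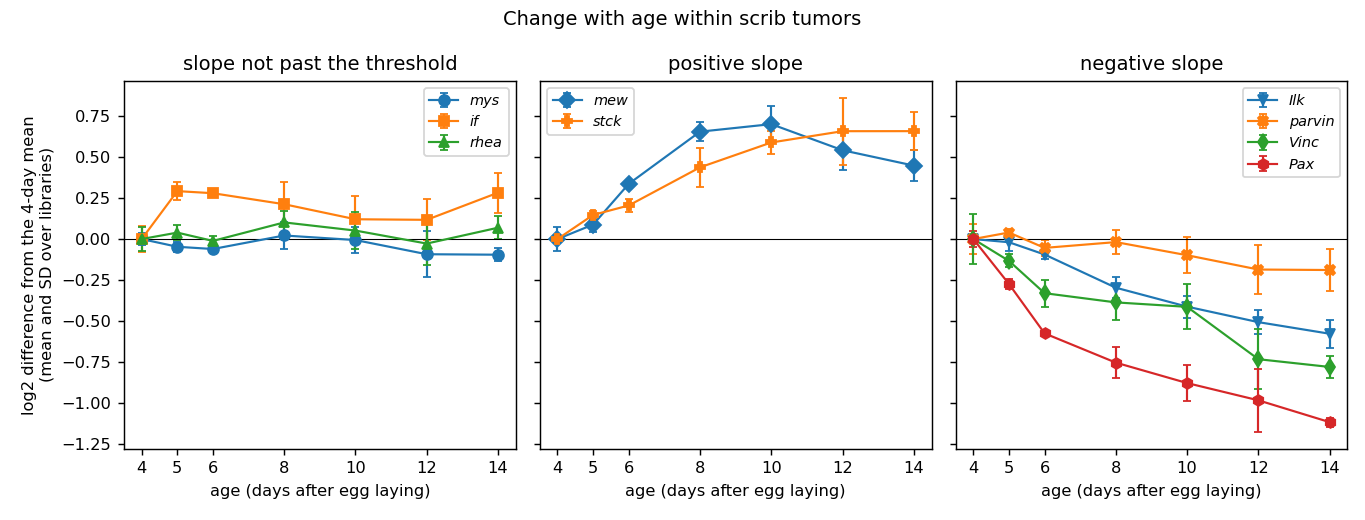
Mean log2(CPM + 1) of each gene in scrib tumors as a difference from its 4-day mean, by age in days AEL, with the SD over 3 or 4 libraries, in panels by the sign and call of the slope. The lines of mys and rhea stay near 0, mew turns down after 10 days, stck levels off near 0.66, and Pax reaches -1.12 at 14 days.

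Between 14 and 4 days, 7 of 9 genes differed, 3 higher and 4 lower, in a background of 74.9% called, 35.2% higher and 39.7% lower. For mys, the 14-day tumors were at 621, 607, 606 and 643 CPM, against 666, 659, 640 and 682 CPM at 4 days. The groups overlapped, and the log2 fold change of -0.10 (adjusted p = 0.0885, limma) had an interval of -0.20 to 0.01. For rhea, the 14-day tumors were at 656, 593, 616 and 652 CPM, against 565, 588, 613 and 633 CPM at 4 days. That difference was 0.07 (adjusted p = 0.354, limma), with an interval of -0.07 to 0.21. For if, the 14-day tumors were at 279, 308, 268 and 321 CPM, against 240, 234, 230 and 260 CPM at 4 days. This was a rise of 0.28 (adjusted p = 0.000783, limma), close to the rise of 0.29 from 4 to 5 days. The means of if were 295, 292, 280, 263, 262 and 294 CPM at 5, 6, 8, 10, 12 and 14 days. A trend of if from 5 days on was not tested.

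Paxillin fell early and by most. Pax averaged 576 ± 20.4, 476 ± 9.98, 386 ± 2.35, 342 ± 22.9, 314 ± 25.0, 293 ± 41.4 and 265 ± 5.12 CPM at 4, 5, 6, 8, 10, 12 and 14 days (SD, n = 4 except 3 at 6 days). The groups of 4, 5, 6 and 8 days did not overlap one another, and from 8 days on each neighboring pair overlapped. The steps at 5, 6 and 8 days passed, with log2 fold changes of -0.27, -0.30 and -0.18 (adjusted p = 0.00128, 0.00301 and 0.0448, limma). The step at 6 days was lost without the most gut-marked library of each group, the one with the highest summed gut marker level, an alternative chosen after seeing the data. It was then at -0.29 (adjusted p = 0.0812, limma), and the step at 8 days was lost likewise, at -0.17 (adjusted p = 0.23, limma). This alternative left out 1 library from each of the 9 groups and so had fewer libraries. Those left out had gut sums of 816 CPM at 6 days and 1.89 CPM at 8 days. The step at 8 days was also lost in 4 other alternatives (adjusted p between 0.0532 and 0.0722) and without any 1 of the 6-day libraries, replicate 1, 3 or 4 of the 8-day tumors, replicate 2 of the 4-day controls or replicate 2 of the 5-day tumors (adjusted p between 0.0501 and 0.137). At 14 days Pax was at 267, 266, 258 and 270 CPM, against 570, 567, 561 and 606 CPM at 4 days, a log2 fold change of -1.12 (SE 0.061, adjusted p = 3.28e-16, limma).

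Vinculin fell more slowly. Vinc averaged 535 ± 60.5, 486 ± 13.2, 424 ± 24.0, 408 ± 31.4, 401 ± 39.3, 322 ± 40.1 and 310 ± 13.7 CPM at the same ages. Only the step from 10 to 12 days passed, at -0.32 (adjusted p = 0.0153, limma), in a background of 5.59% called. That step was lost without replicate 2 of the 10-day tumors (adjusted p = 0.0851) or replicate 2 of the 12-day tumors (adjusted p = 0.0809), and in a fit of the 2 groups alone (adjusted p = 0.189, limma). It was also lost without the most gut-marked library of each group, where it was larger, at -0.35 (adjusted p = 0.0992, limma). The libraries left out there had gut sums of 557 CPM at 10 days and 1.37 CPM at 12 days. At 14 days Vinc was at 325, 312, 292 and 312 CPM, against 498, 504, 512 and 625.4 CPM at 4 days. The groups were well apart, with a log2 fold change of -0.78 (SE 0.079, adjusted p = 4.21e-10, limma).

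The genes of the complex of Ilk, stck and parvin diverged with age. Ilk averaged 112 ± 1.09, 110 ± 4.12, 104 ± 1.86, 90.7 ± 3.93, 83.7 ± 4.03, 78.3 ± 3.95 and 74.6 ± 4.42 CPM over the 7 ages. PINCH went the opposite way, with stck at 133 ± 1.60, 148 ± 2.70, 154 ± 4.00, 181 ± 15.3, 201 ± 9.39, 212 ± 30.4 and 211 ± 17.2 CPM. The third gene, parvin, averaged 140 ± 8.97 CPM at 4 days and 123 ± 11.5 CPM at 14 days. Both Ilk and stck passed at the step from 6 to 8 days, with log2 fold changes of -0.20 and 0.23 (adjusted p = 0.00348 and 0.0163, limma), in a background of 26.4% called. The call of Ilk there was lost without the most gut-marked library of each group, at -0.19 (adjusted p = 0.0542, limma). The call of stck was lost without replicate 1 of the 6-day tumors or replicate 2 or 4 of the 8-day tumors (adjusted p between 0.0502 and 0.0741). At 14 days Ilk was at 73.0, 78.0, 69.0 and 78.2 CPM, against 112, 112, 112 and 110 CPM at 4 days, and stck was at 206, 236, 206 and 196 CPM, against 131, 133, 135 and 133 CPM at 4 days. The log2 fold changes were -0.58 for Ilk and 0.66 for stck (adjusted p = 3.55e-12 and 3.86e-10, limma), and -0.19 for parvin (adjusted p = 0.00800, limma), whose 2 groups overlapped.

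The alpha subunit mew had its highest mean at 10 days. It averaged 239 ± 12.7, 254 ± 8.51, 302 ± 3.61, 377 ± 14.6, 390 ± 30.4, 349 ± 29.5 and 327 ± 20.6 CPM at 4, 5, 6, 8, 10, 12 and 14 days. The steps at 6 and 8 days passed, at 0.25 and 0.32 (adjusted p = 0.00747 and 0.000206, limma), the first in a background of 8.45% called. The decline that followed did not pass step by step, at -0.16 from 10 to 12 days (adjusted p = 0.088, limma) and -0.09 from 12 to 14 days (adjusted p = 0.279, limma). For a description, chosen after the levels were seen and so given with no test, mew was at 338, 297, 329 and 343 CPM at 14 days, against 369, 419, 412 and 359 CPM at 10 days, with no overlap. The log2 difference was -0.25. No member passed in 10-day over 8-day or in 14-day over 12-day tumors with limma, where 23.6% and 16.4% of all genes were called. With edgeR and DESeq2 none passed there either. With scaling by library size alone 1 member was called at each of these steps, and with a library left out 0 to 1. At each of these 2 steps 2 members had an unadjusted p under 0.05.

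All tumors of 6 days and older were set against the 5-day controls, which differ from them in age. In each of these 5 comparisons 9 of 9 genes were higher in tumors, in backgrounds of 62%, 62.7%, 65.3%, 67.6% and 71.8% called, and 32.9%, 33.1%, 33.1%, 34% and 35.6% called higher. These comparisons share their control libraries. The log2 fold change of Pax was 1.72 at 6 days and 1.18 at 14 days, and that of Vinc was 1.04 and 0.60. That of stck was 1.05 and 1.502, so that at 14 days stck had the highest value of the 9 and Pax came after if. For mew the values were 0.27 at 6, 0.59 at 8, 0.63 at 10, 0.47 at 12 and 0.38 at 14 days, with adjusted p of 0.000289 or lower (limma). Ilk came nearest to the controls after mew, at 0.46 at 14 days. Its 14-day range overlapped that of the 4-day controls and lay above that of the 5-day controls.

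The order of the 9 groups by level differed between genes. For mys, if, rhea and parvin the 7 tumor groups overlapped their neighbors throughout, and the first gap came between the lowest tumor group and the highest control group. For mew the order ran from 10-day tumors down to 4-day controls, and the 5-day controls fell between the 5-day and the 4-day tumors, overlapping both. For Ilk the first gap lay between the 6- and 8-day tumors, for stck between the 8- and 6-day tumors, and for Vinc between the 5- and 6-day tumors.

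Levels of different genes were compared as CPM per kilobase of exon. In 4-day tumors mys was highest at 148 ± 3.86, followed by Pax at 137 ± 4.87 and Vinc at 136 ± 15.4, and if was lowest at 40.1 ± 2.22 CPM per kilobase. In 14-day tumors mys was still highest at 138 ± 3.77, stck was next at 133 ± 10.9, and Ilk was lowest at 33.6 ± 1.99 CPM per kilobase. In 5-day controls the order was headed by mys at 67.8 ± 2.72 and Vinc at 52.1 ± 3.22, then mew at 48.2 ± 2.43 and if lowest at 20.7 ± 1.48 CPM per kilobase. In 4-day tumors mew ranked 8 of 9, at 46.0 ± 2.44 CPM per kilobase.

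Ratios within a library do not depend on its scaling. The ratio of the alpha subunits among the members to the beta subunit was taken as (if + mew) to mys per kilobase. It was 0.583 ± 0.018 in 4-day tumors and 0.994 ± 0.069 in 4-day controls (SD, n = 4 and 3). At 5 days it was 0.686 ± 0.029 in tumors and 1.02 ± 0.043 in controls (n = 4 each). The groups did not overlap at either age. In tumors it then climbed to 0.808 ± 0.016 at 14 days. The ratio leaves out the alpha subunit scb, which is described further on and was several times higher in tumors. With scb added to the sum, a choice made after the levels were seen, the ratio was 0.953 ± 0.016 in 4-day tumors and 1.15 ± 0.0898 in 4-day controls, and 1.03 ± 0.031 in 5-day tumors and 1.24 ± 0.029 in 5-day controls. The log2 difference was then -0.27 at 4 days and -0.26 at 5 days, against -0.77 and -0.57 for if and mew alone, and the groups still did not overlap. These are ratios of RNA and say nothing of the amounts of subunit protein.

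The balance between the alpha subunits mew and if, with scb left out, shifted further. The ratio of mew to if was 1.15 ± 0.020 in 4-day tumors and 2.33 ± 0.131 in 4-day controls, and at 5 days 0.995 ± 0.040 in tumors and 2.35 ± 0.287 in controls. Tumor and control values did not overlap. It rose to 1.73 ± 0.230 in 10-day tumors and was 1.29 ± 0.145 in 14-day tumors, whose values overlapped those of 4-day tumors. The smallest two-sided p of the exact permutation test was 0.0286 with 4 against 4 libraries and 0.0571 with 4 against 3. Both alpha ratios reached it at 4 and 5 days, with adjusted p of 0.0857 and 0.0571 over the 12 tests of 4 ratios, and none of the 12 passed 0.05 after adjustment.

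Within the plaque, the ratio of parvin to Ilk was 1.51 ± 0.112 in 4-day tumors and 1.49 ± 0.187 in 4-day controls (exact permutation p = 0.8), and 1.57 ± 0.066 in 5-day tumors and 1.56 ± 0.051 in 5-day controls (exact permutation p = 0.8). It was 1.99 ± 0.1599 in 14-day tumors, with no overlap with 4-day tumors (exact permutation p = 0.0286, adjusted 0.0571). The ratio of Vinc to rhea was 1.39 ± 0.067 in 14-day tumors and 2.51 ± 0.191 in 4-day tumors, also with no overlap (exact permutation p = 0.0286, adjusted 0.0571). At 4 days it was 2.51 ± 0.191 in tumors and 2.22 ± 0.128 in controls, which overlapped (exact permutation p = 0.114), and at 5 days 2.22 ± 0.068 in tumors and 1.96 ± 0.066 in controls, which did not (exact permutation p = 0.0286).

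A set of 3 further ratios was chosen after the levels were seen, which makes 21 tests. The ratio of stck to Ilk was 1.67 ± 0.028 in 4-day tumors and 1.60 ± 0.072 in 4-day controls, and 1.88 ± 0.099 in 5-day tumors and 1.92 ± 0.040 in 5-day controls, with overlap at both ages. In tumors it then rose at every later age, to 3.98 ± 0.334 at 14 days, a log2 difference of 1.25 from 4-day tumors (exact permutation p = 0.0286, adjusted 0.0600 over 21). The ratio of Pax to rhea was 2.54 ± 0.102 in 4-day tumors and 1.15 ± 0.185 in 4-day controls. By 14 days it was 1.11 ± 0.049 in tumors, while 5-day controls were at 1.04 ± 0.041. The ratio of rhea to mys lay between 0.367 and 0.411 in the means of all 7 tumor groups. Controls were at 0.456 ± 0.083 at 4 days and 0.394 ± 0.010 at 5 days. In 14-day tumors this ratio was above that of 4-day tumors by 0.16 log2 units, with no overlap (exact permutation p = 0.0286, adjusted 0.0600 over 21).

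**Figure D4:**
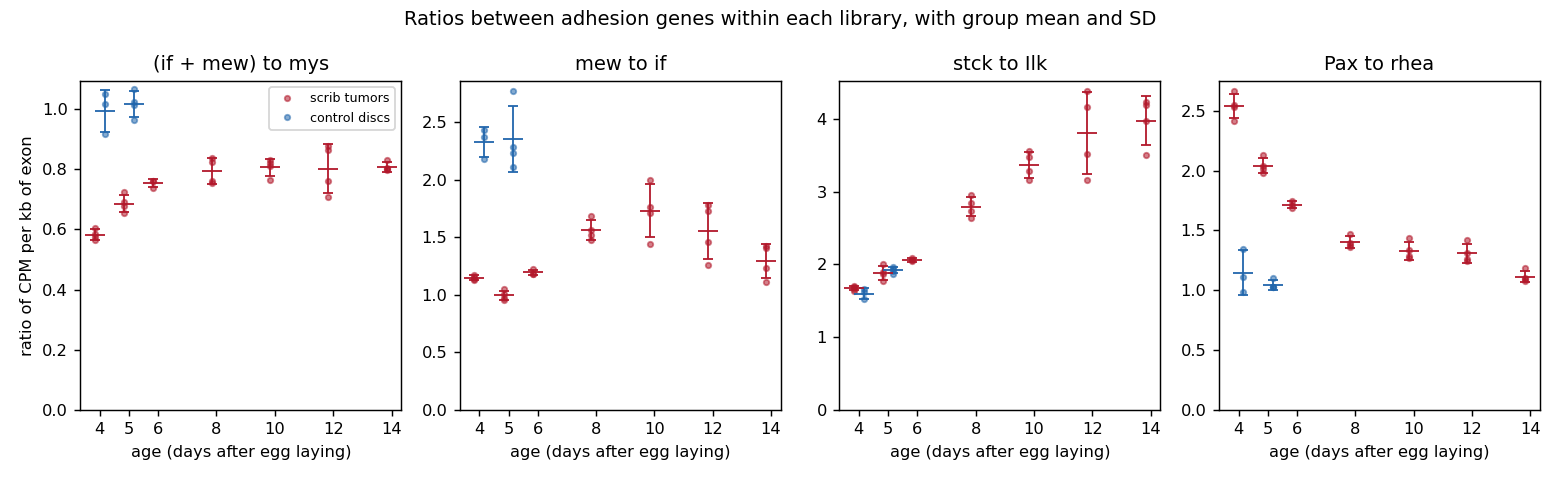
Ratios of CPM per kilobase of exon within each library, by age in days AEL, for (if + mew) to mys, mew to if, stck to Ilk and Pax to rhea, with a point per library, a bar for the mean and whiskers for the SD, for scrib tumors (red, left) and control discs (blue, right). The alpha ratios of tumors lie below both control groups at 4 and 5 days, stck to Ilk climbs in tumors to 3.98, and Pax to rhea falls in tumors to 1.11.

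The remaining integrin subunits of the fly are scb, ItgaPS4 and ItgaPS5, which are alpha subunits, and Itgbn, a second beta subunit. Of these 4, 3 were higher in tumors at 4 and at 5 days and none was lower. Of all genes, 61% were called at 4 days and 71.5% at 5 days, with 32.4% and 39% higher. The alpha subunit scb was at 274 ± 13.3 CPM in 4-day tumors and 40.4 ± 5.71 CPM in 4-day controls, a log2 fold change of 2.74 (adjusted p = 8.87e-21, limma), and its log2 fold change was 1.71 at 5 days (adjusted p = 6.87e-17, limma). Its level was therefore above those of if and mew in 4-day tumors in CPM. Per kilobase of exon scb was at 51.2 to 57.0 CPM there, against 43.9 to 49.0 CPM for mew. The slope of scb on age of 0.005 per day did not pass (adjusted p = 0.526, limma). ItgaPS4 and Itgbn were low in every group. ItgaPS4 had the largest positive slope, 0.23 per day (adjusted p = 2.47e-10, limma), with 8.28 ± 1.28 CPM in 14-day and 1.63 ± 0.913 CPM in 4-day tumors. Itgbn had the negative slope, -0.12 per day (adjusted p = 5.38e-10, limma), and its 5-day log2 fold change of 1.77 was the largest of the 4. ItgaPS5 had the smallest 5-day log2 fold change, 0.13 (adjusted p = 0.212, limma).

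Other proteins of the adhesion plaque were mixed. Of 15 tested, 9 rose and 3 fell in 4-day tumors, and 9 rose and 5 fell in 5-day tumors, against controls of the same age, with medians of 0.18 and 0.15. The shares of all genes called were 61% and 71.5%, with 32.4% and 39% higher, and the medians of all genes 0.04 and 0.06. CAP, a vinculin-binding adaptor, had the largest 5-day log2 fold change, 2.48 (adjusted p = 1.79e-19, limma), and the largest slope, 0.13 per day, reaching 141 ± 14.6 CPM in 14-day tumors, against 61.7 ± 2.09 CPM in 4-day tumors. The kinase gene Src64B had the lowest 5-day value, -0.80 (adjusted p = 1.63e-14, limma). The small GTPase Rap1 had the lowest slope, -0.085 per day (adjusted p = 1.95e-17, limma). The slope passed for 7 upward and 3 downward of the 15, in the background of 77.2% of all genes.

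Among 9 tested ligands and matrix proteins, 3 rose and none fell in 4-day tumors, and 3 rose and 4 fell in 5-day tumors, against controls of the same age. With backgrounds of 61% called and 32.4% higher at 4 days and 71.5% called and 39% higher at 5 days, these counts are not a result about the ligands. Tig, which encodes tiggrin, a ligand of the integrin made of mys and if, had the largest 5-day log2 fold change, 4.23 (adjusted p = 1.78e-16, limma), with 222 ± 16.6 CPM in tumors and 11.2 ± 3.37 CPM in controls. Ppn, a proteoglycan-like matrix protein, had the lowest, -2.66 (adjusted p = 1.48e-13, limma). With age in tumors, 3 rose and 2 fell of the 9, in the background of 77.2% of all genes. Tsp, thrombospondin, had the largest slope, 0.21 per day, and wb, a laminin alpha chain, the lowest, -0.15 per day (adjusted p = 9.63e-10 and 1.17e-06, limma).

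Markers of other cell types moved with the comparisons, in which 32.4% of all genes were called higher at 4 days and 39% at 5 days. The 6 larval muscle markers, of which Mhc is myosin heavy chain, were all higher in tumors at both ages, and their sum was 778 to 912 CPM in 4-day tumors, against 182 to 328 CPM in 4-day controls. At 5 days it was 300 to 496 CPM in tumors, against 9.12 to 14.4 CPM in controls. In tumors all 6 had negative slopes, with sums of 69.8 to 102 CPM at 10 days and 121 to 182 CPM at 14 days. The 8 hemocyte markers were all higher at 4 days, with a sum of 198 to 395 CPM in tumors, against 68.4 to 109 CPM in controls. At 5 days 5 of 8 were higher, with 94.8 to 223 CPM in tumors, against 62.1 to 86.4 CPM in controls. Their slopes passed for 1 upward and 2 downward, where 77.2% of all genes passed, 36.4% upward and 40.8% downward. Muscle and hemocytes also express integrins and talin, and the part of these cells in the members' levels was not tested. From 4 to 10 days the muscle sum fell in tumors, and the members took the different courses described above. Whether these courses are related to the muscle sum was not tested.

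The gut markers differed widely between libraries of the same group up to 6 days and were low in most older tumors. Tumor sums were 81.3 to 1583 CPM at 4 days, 213 to 770 CPM at 5 days and 63.9 to 816 CPM at 6 days. They were 0.153 to 1.89, 0.553 to 1.37 and 0.334 to 1.03 CPM at 8, 12 and 14 days. Over control libraries the sums lay between 0.561 and 2196 CPM. Among 10-day tumors 1 library had 557 CPM while the other 3 were below 1 CPM. All 5 tested gut markers had slopes that passed downward in tumors, in a background of 40.8% downward. Whether the members' slopes are related to the gut sums was not tested. Of 4 tested tracheal markers, 3 rose and 1 fell in 4-day tumors, with sums of 3296 to 4432 CPM in tumors and 1606 to 1876 CPM in controls. The sum of 4 lamellocyte markers was 3813 to 4569 CPM in 4-day tumors and 805 to 951 CPM in 4-day controls, and nearly all of it was the filamin gene cher, while atilla averaged 15.2 CPM in 4-day tumors and 3.41 CPM in 4-day controls. Of 6 adult muscle precursor markers, 1 rose and 4 fell in 4-day tumors, and of 6 fat body markers 1 rose and 3 fell. The share of all genes called at 4 days was 61%, with 32.4% higher. With age in tumors, slopes passed upward for 3 of the 4 tracheal and 5 of the 6 adult muscle precursor markers. They passed downward for 3 of the 6 fat body markers, and for 3 lamellocyte markers upward and 1 downward. Of all genes 77.2% passed, 36.4% upward and 40.8% downward. Without the library of each group with the highest gut sum, the counts of members called were 9 at 4 days, 8 at 5 days, 6 for the slope and 7 between 14 and 4 days.

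**Figure D5:**
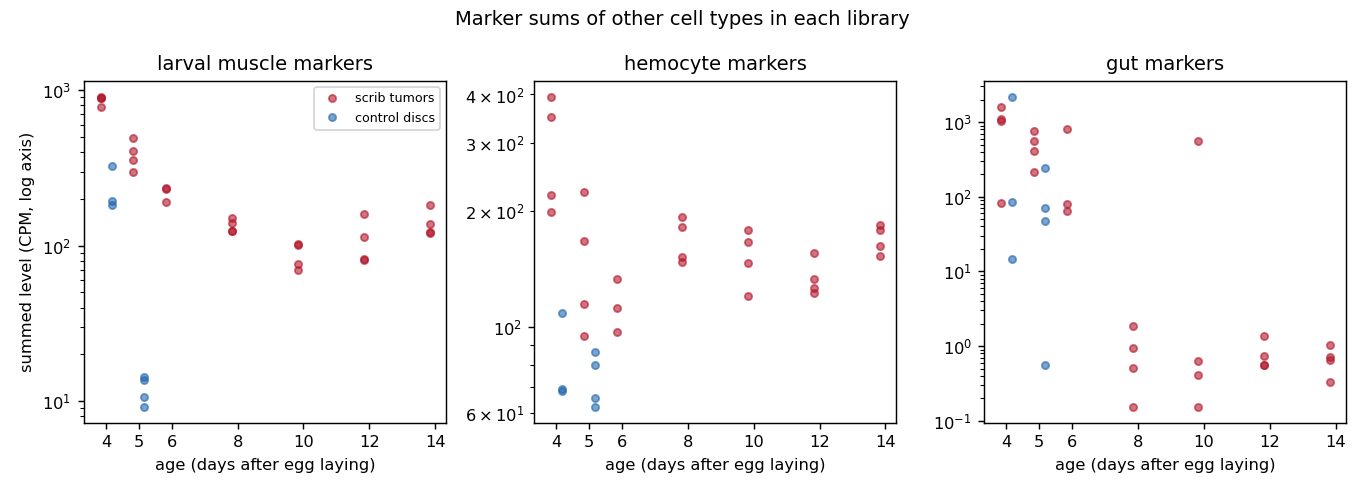
Summed level of larval muscle, hemocyte and gut markers in each library in CPM on a log axis, by age in days AEL, for scrib tumors (red, left) and control discs (blue, right). Muscle sums fall in tumors between 4 and 10 days, and hemocyte sums of 4-day tumors (198 to 395 CPM) lie above those of 4-day controls (68.4 to 109 CPM). Gut sums differ between libraries of the same group up to 6 days, and in tumors are 1.89 CPM or lower at 8, 12 and 14 days.

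As a description, the members were correlated with one another over the 34 libraries in log2(CPM + 1), where the points share the split of tumors and controls. The highest Pearson r was 0.98 between mys and rhea, with 0.98 between Pax and Vinc and 0.97 between if and each of mys and rhea. The lowest was 0.07, between Ilk and mew. Of 6278 genes averaging 10 CPM or more, those most like mys were ATP8B, CG9186 and CG12991, with r of 0.99 each. Those most like if were Fili, CG11448 and Sp7 (0.99, 0.98 and 0.98), and those most like rhea were Vrp1, insc and CG1698 (0.99, 0.98 and 0.98). For Vinc they were Arpc1, Myo61F and subdued (0.98 each). Those most like Ilk were CG14879, Chd64 and GstD3 (0.98, 0.97 and 0.97), those most like stck were CG42390, CG13506 and Strn-Mlck (0.99, 0.99 and 0.98), and those most like parvin were CG34325, CG42326 and CG12065 (0.98 each). For Pax they were CG4267, CG44085 and Mmp1, a matrix metalloproteinase gene (0.99 each). For mew, whose best r was lower, they were CG10874, Timp and Tl (0.93 each).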

How the data were processed

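RNA was taken from control and scrib1 wing discs, and the authors aligned 150 bp paired-end reads to BDGP6 (STAR), assigned them to genes (featureCounts, default settings) and scaled the counts to CPM (edgeR), as their methods state. The deposited CPM values come from 1 file per library. Plain CPM values sum to the same total in every library, and the deposited values did not. They were taken as a signal scaled further by the authors and were treated as CPM. Sums lay between 919589 and 972682 in control libraries and between 979776 and 1054125 in tumor libraries. Dividing by the step of a library gave whole reads (within 0.05) for 100% of values. Genes were kept with edgeR's filterByExpr by group on these reads, and log2(CPM + 1) was fitted with limma (version 3.58.1, R 4.3.3) on 34 libraries with 9 group means, or on 27 tumor libraries for the slope, and called at a Benjamini-Hochberg adjusted p under 0.05. Alternatives used edgeR (4.0.16) and DESeq2 (1.42.0) on recovered reads, other pseudocounts, filters, scalings and samples. Ratios were tested by exact two-sided permutation (scipy 1.17.1). Positions and exon lengths came from the Ensembl annotation of BDGP6. Between pairs of replicate libraries, squared differences in reads averaged 5.78 to 47 times the sampling variance. Named genes were all 9 members, the genes of each context list with the largest and smallest 5-day fold change and slope, and the 3 most correlated genes. The members and lists were chosen with earlier results of these data known.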

Additional observations from a re-analysis of the deposited data

Results flagged for a closer look

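In 4 of the 63 tests of a gene in a group of 4 libraries, a single library stood far from the other 3, and chance alone gives about 1 in 20. Vinc was at 625.4 CPM in replicate 4 of the 4-day tumors, where the others were at 498 to 512 CPM. Ilk was at 110 CPM in the same library, where the others were at 112 CPM, a gap that is small in size. mew was at 355 CPM in replicate 3 of the 8-day tumors, where the others were at 382 to 386 CPM. Ilk was at 55.7 CPM in replicate 4 of the 5-day controls, where the others were at 53.1 to 53.4 CPM.

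For 6 genes the difference between tumors and controls changed from 4 to 5 days by the interaction test of limma. The change was -0.47 for mys, -0.37 for mew and -0.37 for Pax, and 0.36 for Ilk, 0.26 for stck and 0.34 for parvin, on the log2 scale.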

How the results depend on the processing

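The counts of 9 and 8 members called at 4 and 5 days, of 9 in each comparison of later tumors with 5-day controls, of 7 between 14 and 4 days and of 6 for the slope did not change when any 1 library was left out. The others ranged over 5 to 7 for the interaction, 5 to 6 for control discs, and, for the tumor steps in order of age, 2 to 3, 2 to 2, 2 to 4, 0 to 1, 0 to 2 and 0 to 1. With scaling by library size alone 1 member was called in 10-day over 8-day tumors and 1 in 14-day over 12-day tumors. With only the 2 groups fitted 0 members were called in 12-day over 10-day tumors. Without the most gut-marked library of each group, an alternative chosen after seeing the data, 1 was called in 6-day over 5-day tumors, 2 in 8-day over 6-day and 0 in 12-day over 10-day tumors. The cause was not tested. The difference of mew at 5 days was -0.067 with scaling by library size alone, -0.0034 with DESeq2 size factors, -0.0093 with edgeR and -0.0042 with DESeq2, and ranged over -0.0015 to 0.054 with a library left out. That of Vinc between 5- and 4-day controls was -0.00029 with scaling by library size alone and ranged over -0.028 to 0.094 with a library left out.

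The replicate numbers did not pair the libraries. Deviations of same-numbered libraries correlated at -0.012 on average over 129 pairs, against 0.004 over 384 other pairs, and 7 of 34 libraries correlated best with their own number. With the replicate block 9 and 8 members were called at 4 and 5 days, 6 for the interaction and 7 between 14 and 4 days.

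Leaving out a library, the log2 difference in parvin to Ilk ranged over -0.077 to 0.099 at 4 days and -0.012 to 0.038 at 5 days, that in stck to Ilk at 5 days over -0.061 to 0.00030, and that in rhea to mys at 5 days over -0.029 to 0.000691. No other ratio turned its sign. With scb among the alpha subunits, chosen after seeing the data, the difference in (if + mew) to mys was -0.27 at 4 days, -0.26 at 5 days and 0.31 between 14 and 4 days, where it was -0.77, -0.57 and 0.47 without scb. Members had 1133 or more reads per library, which gives a counting error of up to 2.92%, above the SD between replicates for Ilk in 5-day controls (2.3%).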
